A study of Saccharomyces cerevisiae with 18 samples.

Results

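The genes described here belong to protein maturation in budding yeast: KEX2, KEX1, STE13 and YPS1, whose proteases act on the alpha factor leader or in the late secretory pathway, VPS10, a receptor that sorts cargo to the vacuole, and PEP4, PRB1, PRC1 and CPS1, which encode vacuolar proteases. They were matched by symbol in the platform's annotation, and the choice was made with earlier results of these data known. VPS10 carries its current standard name, PEP1, in that annotation and was matched through its synonym. Each of the 9 genes had 1 probe set, so 9 of the 5498 Saccharomyces cerevisiae probe sets tested, and 9 of the 5449 genes behind them, are described. All 9 had a mean signal above the background level of 5.58 log2 units.

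Transcript levels were measured on 18 Affymetrix yeast arrays in 3 strains, each grown in anaerobic and in aerobic batch culture, with 3 biological replicates in each of the 6 groups. All strains shared the host CEN.PK 530-1C, in which the triose phosphate isomerase gene TPI1 is deleted, and a multicopy 2 μm plasmid with the marker POT1, the isomerase gene of fission yeast. AAC, labelled a high amylase producer, expressed a secreted amylase with the alpha factor leader from the TPI1 promoter. AAP, labelled as producing less amylase, expressed it from the TEF1 promoter, and NC, the control, held the TPI1 promoter with no amylase. Cultures of 500 ml at 30 °C and 600 rpm were sampled early in growth on glucose, at an optical density of about 1.

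The alpha factor leader carries a secreted protein into the endoplasmic reticulum and is cut off in the late Golgi. Kex2, a furin-like endoprotease, cleaves after pairs of basic residues; Kex1, a carboxypeptidase, removes basic residues from the carboxyl end of a product, and Ste13, a dipeptidyl aminopeptidase, trims the spacer left at the amino end. Yps1 is an aspartyl protease of the yapsin family, held at the cell surface by a lipid anchor, that can also cut at basic residues. Vps10 carries carboxypeptidase Y from the Golgi towards the vacuole. There proteinase A, the product of PEP4, starts the activation of proteinase B (PRB1), carboxypeptidase Y (PRC1) and carboxypeptidase S (CPS1).

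Array medians over the tested probe sets ranged from 7.08 to 7.13 log2 units, and precision throughout is limited by the number of arrays. The array labelled AAP aerobic replicate 3 stood apart from its group. Its mean correlation across genes was 0.993 with the aerobic AAC arrays and 0.978 with the other aerobic AAP arrays. Its fission yeast tpi1 signal was 9.24, where the other aerobic AAP arrays had 12.42 and 12.38 and the aerobic AAC arrays 8.97 to 9.41. Calls for the 9 genes that rest on it, and their counts, are given with and without it. For the related lists, calls that changed without it are named in the comparisons described. Leaving it out also narrows the spread that all groups share. The tpi1 signal itself differed between the strains, at 6.17 to 7.29 in all NC arrays, so that effects of the amylase cassette and of the isomerase signal cannot be told apart in any comparison of strains. Host TPI1 stayed at 5.23 to 5.52 in all arrays, below background.

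Of the 9 genes, YPS1 and PRB1 differed most between groups, and both were highest in AAC. YPS1 was 2.04-fold higher in aerobic AAC than in aerobic NC, and PRB1 was 1.73-fold higher. Averaged over the strains, PEP4 and PRB1 were higher without oxygen, by 1.25-fold and 1.23-fold, and YPS1 and CPS1 were 1.13-fold and 1.10-fold lower. With all arrays in the fit, the calls for oxygen were not the same in each strain. The limma test of a difference between strains in the oxygen effect then passed for PRB1 alone. It passed for AAC and NC (adjusted p = 0.0450) and for AAP and NC (adjusted p = 0.0198). The rise of PRB1 was called in NC alone, and YPS1 fell by 0.41 log2 units in AAC, against a difference of 0.19 in NC that did not pass. Without AAP aerobic replicate 3, PRB1 was also called in AAP, at 0.25, and the YPS1 difference in NC passed (adjusted p = 0.0069 for each). With only the groups compared, PRB1 was also called in AAC (adjusted p = 0.0428). The mean for YPS1 was -0.11 without AAP aerobic replicate 3, and that for CPS1 was -0.06 after quantile normalization (adjusted p = 0.169). For KEX2 no comparison passed the test. The range of the 6 group means was 1.03 log2 units for YPS1, 0.939 for PRB1, 0.540 for PEP4, 0.364 for VPS10, 0.346 for KEX1, 0.272 for CPS1, 0.267 for PRC1, 0.206 for STE13 and 0.121 for KEX2. Over all tested probe sets the median of that range was 0.325, and 92.0% had a smaller one than YPS1, 90.4% than PRB1 and 9.1% than KEX2.

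**Figure D1:**
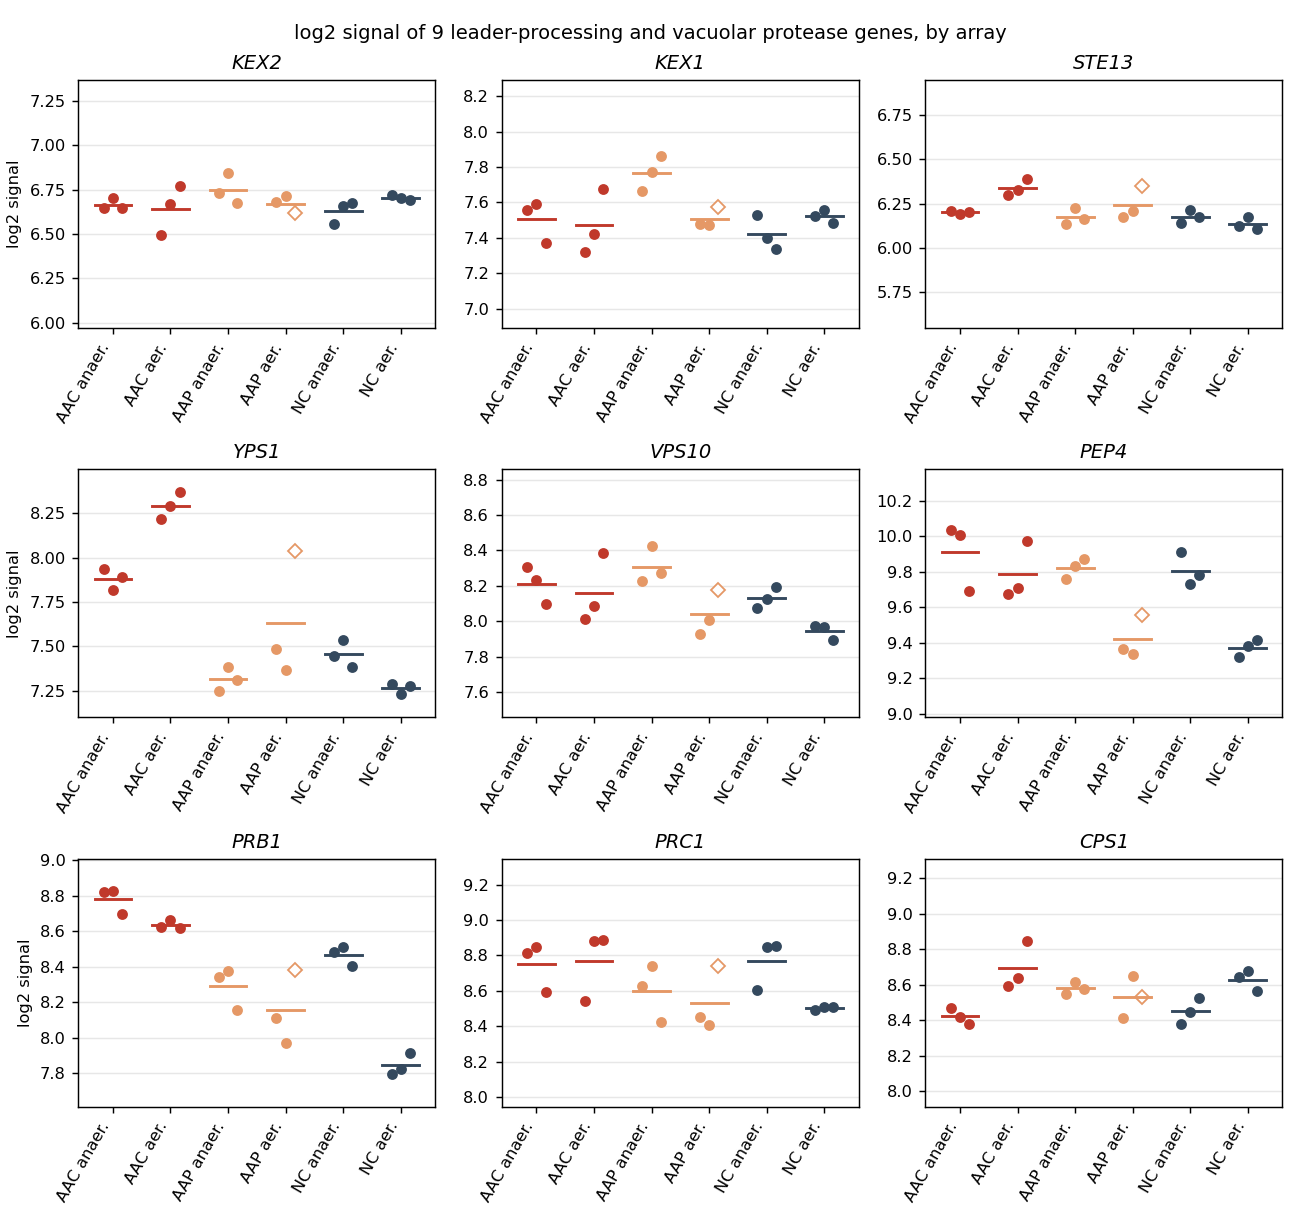
The log2 signal of each of the 9 genes (y axis, 1 panel per gene, all panels the same height in log2 units) in the 18 arrays, by strain with anaerobic left of aerobic cultures on the x axis; points are arrays, lines are group means of 3 and the open diamond is the array labelled AAP aerobic replicate 3. YPS1 and PRB1 spread most, with group means 1.03 and 0.939 log2 units apart, and KEX2 least, at 0.121.

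The values that follow are log2 signals in the order of replicates 1 to 3. KEX2 (YNL238W), which makes the first cut in the leader, had group means between 6.63 and 6.75 and single arrays between 6.49 and 6.85. Its highest mean was 6.75 ± 0.0879 (SD, n = 3) in anaerobic AAP and its lowest 6.63 ± 0.0638 (SD, n = 3) in anaerobic NC. In the order of its group levels all neighbouring groups overlapped. None of the 13 comparisons tested with limma passed for KEX2, 0 had an unadjusted p under 0.05, and the smallest adjusted p was 0.174. The 95% intervals of its 10 differences between conditions or strains lay between -0.22 and 0.25 log2 units.

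KEX1 (YGL203C), the carboxypeptidase, was highest in anaerobic AAP, with 7.67, 7.77 and 7.86, against 7.48, 7.47 and 7.58 in aerobic AAP. In AAC it read 7.56, 7.59 and 7.37 in anaerobic cultures and 7.32, 7.42 and 7.68 in aerobic cultures. NC had 7.53, 7.40 and 7.34 in anaerobic and 7.53, 7.56 and 7.48 in aerobic cultures. The anaerobic AAP arrays lay above every array of aerobic NC, the next group in the order of levels, but the lowest of them lay below the 7.68 of aerobic AAC. Further down the order neighbouring groups overlapped. Anaerobic growth raised KEX1 in AAP by 0.26 ± 0.0846 log2 units (SE, adjusted p = 0.0252), and by 0.29 without AAP aerobic replicate 3 (adjusted p = 0.0211). The difference of anaerobic AAP from anaerobic NC was 0.35 ± 0.0846 (SE, adjusted p = 0.0123), and that of anaerobic AAC from anaerobic AAP was -0.26 ± 0.0846 (SE, adjusted p = 0.0298). Whether the oxygen effect on KEX1 differed between AAP and NC gave an adjusted p of 0.0605, with a difference of 0.36 and an interval of 0.10 to 0.61. It passed without AAC aerobic replicate 3, AAC anaerobic replicate 3 or NC anaerobic replicate 1 (adjusted p down to 0.0277). It also passed with only the groups compared (adjusted p = 0.0441). The oxygen call in AAP was lost without AAP aerobic replicate 1 or 2 or AAP anaerobic replicate 2 or 3 (adjusted p up to 0.103), the call against NC without NC anaerobic replicate 2 or 3 (up to 0.0599), and that of AAC against AAP without AAC anaerobic replicate 3 or AAP anaerobic replicate 2 or 3 (up to 0.126).

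STE13 (YOR219C), the dipeptidyl aminopeptidase, had its highest mean in aerobic AAC and its lowest in aerobic NC. Its values were 6.21, 6.19 and 6.20 in anaerobic AAC, against 6.30, 6.33 and 6.39 in aerobic AAC. Anaerobic AAP had 6.13, 6.23 and 6.16, against 6.17, 6.21 and 6.35 in aerobic AAP. NC read 6.14, 6.21 and 6.17 in anaerobic and 6.12, 6.17 and 6.11 in aerobic cultures. The 3 aerobic AAC arrays lay above every anaerobic AAC and aerobic NC array, but neighbours in the order of the group levels overlapped. STE13 was 0.21 ± 0.0462 log2 units higher in aerobic AAC than in aerobic NC (SE, adjusted p = 0.0075), and it fell by 0.14 in AAC without oxygen (adjusted p = 0.0244). The oxygen effect lost its call without AAC aerobic replicate 2 or 3 or AAC anaerobic replicate 1 or 2, with adjusted p up to 0.0972. Without AAP aerobic replicate 3, STE13 was also 0.15 higher in aerobic AAC than in aerobic AAP (adjusted p = 0.0139), against 0.10 with it (adjusted p = 0.242).

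YPS1 (YLR120C), the yapsin, separated AAC from the other strains in both conditions. Anaerobic AAC had 7.94, 7.82 and 7.89, against 8.22, 8.29 and 8.37 in aerobic AAC. In AAP the values were 7.25, 7.38 and 7.31 in anaerobic cultures and 7.48, 7.37 and 8.04 in aerobic cultures, where the 8.04 is the array that stood apart. NC read 7.45, 7.54 and 7.38 in anaerobic and 7.29, 7.23 and 7.28 in aerobic cultures. All aerobic AAC arrays lay above all arrays of every other group, and anaerobic AAC lay above both anaerobic AAP and anaerobic NC. From the top, aerobic AAC was apart from anaerobic AAC, which overlapped with aerobic AAP, and aerobic AAP overlapped with anaerobic NC; anaerobic AAP and aerobic NC overlapped at the bottom.

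In aerobic cultures YPS1 was 1.03 ± 0.119 log2 units higher in AAC than in NC (SE, adjusted p = 0.000174), a larger difference than 99.3% of the tested probe sets had. Against aerobic AAP the difference of aerobic AAC was 0.66 ± 0.119 (SE, adjusted p = 0.0153), and 0.87 ± 0.0603 without AAP aerobic replicate 3 (SE, adjusted p = 9.92e-08). Anaerobic AAC was 0.43 above anaerobic NC (adjusted p = 0.0283) and 0.57 above anaerobic AAP (adjusted p = 0.0027). The anaerobic difference of AAC from NC lost its call without any 1 of the AAC anaerobic arrays or NC anaerobic replicate 2 or 3 (adjusted p up to 0.100), and the aerobic difference of AAC from AAP without AAC aerobic replicate 2 or 3 or AAP aerobic replicate 1 or 2 (up to 0.103). Between AAP and NC no difference passed for YPS1: it was -0.14 in anaerobic cultures (interval -0.39 to 0.11) and 0.37 in aerobic cultures (interval 0.11 to 0.62, adjusted p = 0.300), or 0.16 without the array that stood apart (adjusted p = 0.443). The aerobic value was 0.50 without AAP aerobic replicate 2 (adjusted p = 0.0494).

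Over the strains YPS1 fell by 0.18 ± 0.0684 without oxygen (SE, adjusted p = 0.0330), or by 0.11 without AAP aerobic replicate 3 (adjusted p = 0.0073). Quantile normalization gave an adjusted p of 0.0501, and 7 of the 18 fits that left out 1 array lost the call (up to 0.0618). In AAC, YPS1 fell by 0.41 in anaerobic cultures (SE 0.119, adjusted p = 0.0103), and this call held in every fit that left out 1 array. In AAP the difference was -0.32 (adjusted p = 0.0469), but -0.11 without AAP aerobic replicate 3 (adjusted p = 0.159), and the call was lost in 16 of the 18 fits. In NC the difference was 0.19, with an interval from -0.06 to 0.44 (adjusted p = 0.194), and without the AAP array its adjusted p was 0.0069. The oxygen effect of AAC minus that of NC was -0.60 ± 0.168 for YPS1 (SE, adjusted p = 0.0656), and adjusted p was 0.000229 without the AAP array. For AAP minus NC this difference was -0.51 (adjusted p = 0.0587) with the array and -0.30 (adjusted p = 0.0304) without it. That difference also passed without AAP aerobic replicate 1 (adjusted p = 0.0430) or 2 (0.0110). The difference for AAC minus NC also passed without AAP aerobic replicate 2 (adjusted p = 0.0328) and with only the groups compared (0.000708).

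VPS10 (YBL017C), the sorting receptor, had 8.31, 8.23 and 8.10 in anaerobic AAC, against 8.01, 8.09 and 8.38 in aerobic AAC. Anaerobic AAP had 8.23, 8.42 and 8.27, against 7.93, 8.01 and 8.18 in aerobic AAP. NC had 8.08, 8.13 and 8.19 in anaerobic and 7.97, 7.97 and 7.89 in aerobic cultures. The anaerobic arrays lay above the aerobic arrays in AAP and in NC and overlapped with them in AAC, and all neighbours in the order of the 6 levels overlapped. Over the strains VPS10 was 0.17 ± 0.0517 log2 units higher without oxygen (SE, adjusted p = 0.0099), and in AAP 0.27 ± 0.0895 higher (SE, adjusted p = 0.0263). These were 0.19 and 0.34 without AAP aerobic replicate 3. The call in AAP was lost without AAP aerobic replicate 1 or 2 or AAP anaerobic replicate 2, with adjusted p up to 0.114, and with only the groups compared (0.0569). The difference was 0.19 in NC (adjusted p = 0.0937) and 0.05 in AAC (adjusted p = 0.685). In NC VPS10 passed after quantile normalization (adjusted p = 0.0286), without AAC aerobic replicate 3 (0.0403) and with only the groups compared (0.0116). Its 6 differences between strains all missed the threshold, the largest being 0.22 for aerobic AAC over aerobic NC (interval 0.03 to 0.41, adjusted p = 0.100).

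PEP4 (YPL154C), proteinase A, was lower in aerobic AAP and aerobic NC than elsewhere. Anaerobic AAC had 10.04, 10.01 and 9.69, against 9.68, 9.71 and 9.98 in aerobic AAC. Anaerobic AAP had 9.76, 9.84 and 9.87, against 9.36, 9.34 and 9.56 in aerobic AAP. NC had 9.91, 9.73 and 9.78 in anaerobic and 9.32, 9.38 and 9.41 in aerobic cultures. The 3 anaerobic groups and aerobic AAC overlapped in turn, and aerobic AAC was apart from aerobic AAP and aerobic NC, which overlapped with each other. Over the strains PEP4 was 0.32 ± 0.0545 higher without oxygen (SE, adjusted p = 0.000101), and in AAP it rose by 0.40 ± 0.0943 (SE, adjusted p = 0.0033). These were 0.34 and 0.47 without AAP aerobic replicate 3. It rose by 0.44 ± 0.0943 in NC (SE, adjusted p = 0.0013), and the difference in AAC was 0.12 (interval -0.08 to 0.33, adjusted p = 0.309), or 0.23 without AAC anaerobic replicate 3 (adjusted p = 0.0412). That the effect in AAC was smaller than in NC was not called, at -0.31 with an adjusted p of 0.219. Aerobic AAC exceeded aerobic NC by 0.42 (adjusted p = 0.0079) and aerobic AAP by 0.37 (adjusted p = 0.0452). With the replicate number as a block the second of these had an adjusted p of 0.0579, and it was lost in 15 of 18 fits that left out 1 array, but without AAP aerobic replicate 3 it was 0.44 (adjusted p = 0.0041).

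PRB1 (YEL060C), proteinase B, was highest in AAC in both conditions. Anaerobic AAC had 8.82, 8.83 and 8.70, against 8.63, 8.66 and 8.62 in aerobic AAC. Anaerobic AAP had 8.34, 8.38 and 8.16, against 8.11, 7.97 and 8.38 in aerobic AAP. NC had 8.48, 8.51 and 8.41 in anaerobic and 7.80, 7.82 and 7.91 in aerobic cultures, the lowest of all groups. From the top, anaerobic AAC, aerobic AAC and anaerobic NC were apart from each other and from the group below, anaerobic and aerobic AAP overlapped, and aerobic NC was apart from both.

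PRB1 exceeded NC in aerobic AAC by 0.79 ± 0.0835 log2 units (SE, adjusted p = 7.41e-05) and in anaerobic AAC by 0.32 ± 0.0835 (SE, adjusted p = 0.0222). Against AAP, aerobic AAC was 0.48 higher (adjusted p = 0.0148), or 0.60 higher without AAP aerobic replicate 3 (adjusted p = 1.47e-05), and anaerobic AAC was 0.49 higher (adjusted p = 0.000708). Between AAP and NC the difference for PRB1 was -0.18 in anaerobic cultures (adjusted p = 0.145) and 0.31 in aerobic cultures (adjusted p = 0.175, or 0.20 and 0.333 without the array that stood apart). The anaerobic value had an adjusted p of 0.0371 once that array was left out, and without AAP aerobic replicate 2 the aerobic value was 0.40 (adjusted p = 0.0240). The anaerobic call of AAC against NC was lost without AAC anaerobic replicate 1 or 2 or NC anaerobic replicate 2 or 3 (up to 0.0869), and the aerobic call of AAC against AAP without AAC aerobic replicate 2 or AAP aerobic replicate 1 or 2 (up to 0.103).

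Over the strains PRB1 was 0.30 ± 0.0482 higher without oxygen (SE, adjusted p = 5.44e-05), or 0.34 without AAP aerobic replicate 3. Anaerobic growth raised it in NC by 0.62 ± 0.0835, or 1.54-fold (SE, adjusted p = 1.57e-05). The difference was 0.15 in AAC (interval -0.03 to 0.32, adjusted p = 0.169) and 0.14 in AAP (interval -0.04 to 0.32, adjusted p = 0.214). In AAP the value was 0.25 without AAP aerobic replicate 3 (adjusted p = 0.0069). With only the groups compared, the adjusted p in AAC was 0.0428. The oxygen effect in AAC minus that in NC was -0.48 ± 0.118 (SE, adjusted p = 0.0450) and that in AAP minus that in NC was -0.49 ± 0.118 (SE, adjusted p = 0.0198). The call for AAC and NC held in 3 of 18 fits that left out 1 array, with adjusted p up to 0.120 in the others, and blocking on the replicate number gave it an adjusted p of 0.0634. The call for AAP and NC was lost without NC aerobic replicate 1 or 2 or NC anaerobic replicate 2. It was also lost with only the groups compared (adjusted p = 0.0564). The difference for AAP and NC was -0.37 without AAP aerobic replicate 3 (adjusted p = 0.0187).

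PRC1 (YMR297W), carboxypeptidase Y, the cargo of Vps10, had group means between 8.50 and 8.77 and single arrays between 8.41 and 8.89. Neighbours in the order of its levels overlapped throughout. With limma, 0 of the 13 comparisons passed, 2 had an unadjusted p under 0.05, and the smallest adjusted p was 0.0618, for the oxygen effect in NC. There the anaerobic values of 8.61, 8.85 and 8.85 lay above the aerobic values of 8.49, 8.51 and 8.51, with a difference of 0.27 and an interval of 0.03 to 0.51. Under quantile normalization this difference was 0.35 with an adjusted p of 0.0190, and without AAP aerobic replicate 3 its adjusted p was 0.0357. Aerobic AAC minus aerobic NC was 0.27 for PRC1 (adjusted p = 0.109), or 0.38 without AAC aerobic replicate 1 (adjusted p = 0.0413).

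CPS1 (YJL172W), carboxypeptidase S, fell over the strains without oxygen, by 0.13 ± 0.0398 (SE, adjusted p = 0.0086; also 0.13 without AAP aerobic replicate 3), where PEP4 and PRB1 rose. Anaerobic AAC had 8.47, 8.42 and 8.38, against 8.59, 8.64 and 8.85 in aerobic AAC. In AAP it read 8.55, 8.62 and 8.58 in anaerobic and 8.41, 8.65 and 8.53 in aerobic cultures. NC had 8.38, 8.45 and 8.53 in anaerobic and 8.64, 8.68 and 8.56 in aerobic cultures. In AAC and in NC every anaerobic array lay below every aerobic array, and in AAP they overlapped. CPS1 fell by 0.27 ± 0.0689 in AAC without oxygen (SE, adjusted p = 0.0046) and by 0.18 ± 0.0689 in NC (SE, adjusted p = 0.0426), and the difference in AAP was 0.05 (interval -0.10 to 0.20, adjusted p = 0.610). Quantile normalization left -0.07 in NC (adjusted p = 0.395) and -0.06 over the strains (adjusted p = 0.169), and 8 of 18 fits that left out 1 array lost the call in NC (up to 0.137). None of the 6 strain differences of CPS1 passed with all arrays, the smallest adjusted p being 0.0894 for anaerobic AAC minus anaerobic AAP, at -0.16. That difference passed with only the groups compared (adjusted p = 0.0260) and without AAC aerobic replicate 3 (adjusted p = 0.04998).

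**Figure D2:**
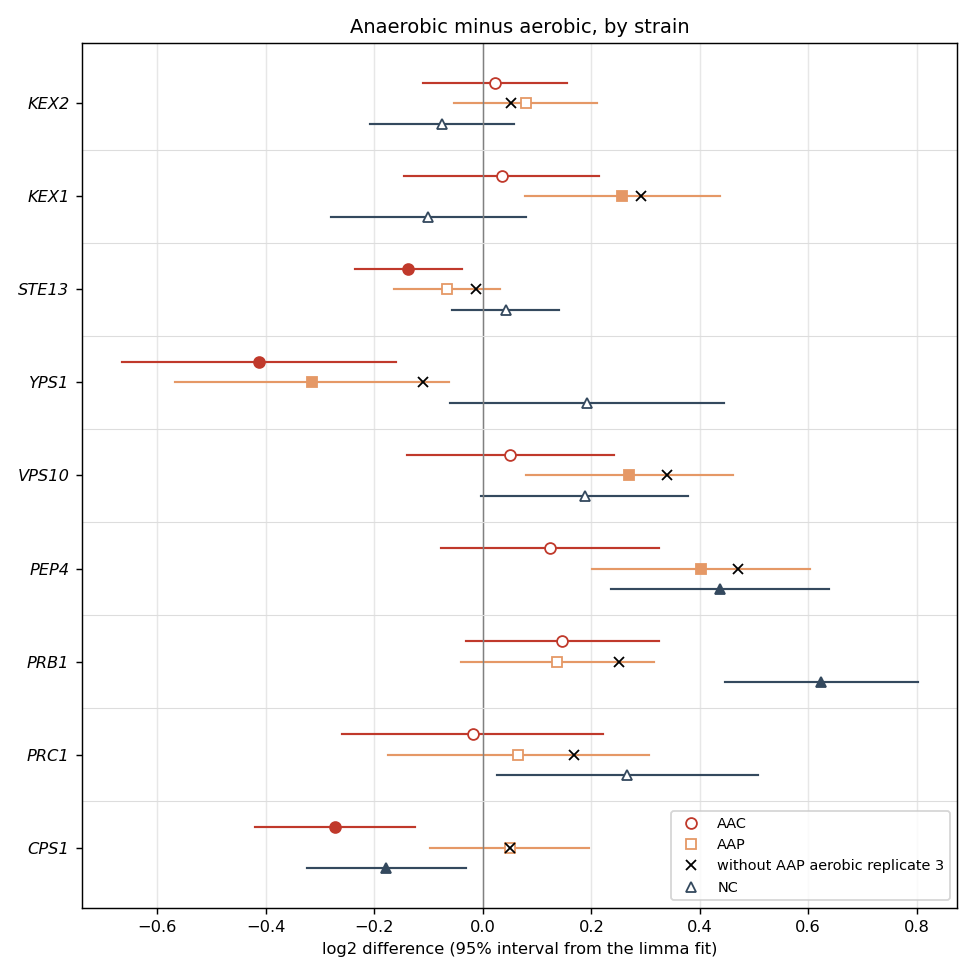
Anaerobic minus aerobic log2 difference (x axis) of each gene (y axis) in AAC, AAP and NC, with 95% intervals; filled symbols have an adjusted p under 0.05, and a cross marks the AAP value without AAP aerobic replicate 3. PRB1 rose in NC by 0.62 and PEP4 in NC and AAP by 0.44 and 0.40, while CPS1 and YPS1 fell in AAC by 0.27 and 0.41.

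Counted by comparison, the shares of the 9 genes called for oxygen lay near those of all probe sets. Over the strains 5 of the 9 genes passed, VPS10, PEP4 and PRB1 upwards and YPS1 and CPS1 downwards, where 61.6% of all tested probe sets passed. The same 5 passed without AAP aerobic replicate 3, against 66.8%. In AAC 3 of 9 passed (STE13, YPS1 and CPS1, all lower), against 44.5% of probe sets, or 22.8% lower. In AAP 4 of 9 passed (KEX1, VPS10 and PEP4 higher, YPS1 lower), against 38.4%. Leaving out AAP aerobic replicate 3 gave 4, with PRB1 in place of YPS1, against 41.9%, but PEP4 alone passed without AAP anaerobic replicate 2, and 2 passed without AAP aerobic replicate 1 or 2 or AAP anaerobic replicate 3. Over all fits that left out 1 array, 1768 to 2303 probe sets passed in AAP. In NC 3 of 9 passed (PEP4 and PRB1 higher, CPS1 lower), against 50.3%, and without AAP aerobic replicate 3, 5 passed, with YPS1 and PRC1 added, against 56.2%. The median difference of the 9 genes over the strains was 0.06 log2 units, beside 0.00450 for all tested probe sets.

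Between strains, AAC against NC in aerobic cultures gave 4 of 9 genes, STE13, YPS1, PEP4 and PRB1, all higher, where 19.4% of probe sets passed and 9.42% were higher. The same 4 passed without AAP aerobic replicate 3, where 30% of probe sets passed and 714 of the 5498 were higher. These 4 calls held under each of the 24 alternatives computed for them. The median difference of the 9 was 0.22 log2 units, beside -0.02 for all probe sets. In anaerobic cultures 2 of 9, YPS1 and PRB1, were higher in AAC than in NC, where 12.0% of probe sets passed and 6.71% were higher. The same 2 passed without AAP aerobic replicate 3, against 19.4%. None of the 9 remained called when AAC anaerobic replicate 1 or 2, or NC anaerobic replicate 2 or 3, was left out. Without NC anaerobic replicate 2, 326 probe sets passed.

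AAC against AAP gave 3 of 9 in aerobic cultures (YPS1, PEP4 and PRB1, all higher), where 3.97% of probe sets passed and 2.38% were higher. Leaving out AAP aerobic replicate 3 gave 5 of 9, with STE13 and PRC1 added, where 28.1% passed. Leaving out AAP aerobic replicate 1 or 2 gave 0 of 9, where 5 of 5498 probe sets passed. The 3 calls were also lost without AAC aerobic replicate 2, and PRB1 alone remained without AAC aerobic replicate 3. A fit to only the groups compared called no probe set. With the replicate number as a block, 140 probe sets passed in place of 218, and YPS1 and PRB1 remained. In anaerobic cultures 3 of 9 passed (YPS1 and PRB1 higher, KEX1 lower), where 33.0% of probe sets passed. The same 3 passed without AAP aerobic replicate 3, against 41.4%. AAP against NC gave KEX1 alone, 1 of 9, in anaerobic cultures, where 21.0% passed, and PRB1 was added without AAP aerobic replicate 3, against 31.8%. None of the 9 passed without NC anaerobic replicate 2 or 3, and 440 probe sets passed without NC anaerobic replicate 2. In aerobic cultures limma called 0 of 9, where 0.200% of probe sets passed, and STE13, YPS1 and PRB1 had an unadjusted p under 0.05. YPS1 and PRB1 passed without AAP aerobic replicate 2, where 60 probe sets passed. The comparisons share groups: both AAC and AAP were set against the same NC arrays.

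The oxygen effect differed between AAC and NC for PRB1, 1 of 9 genes, where 2.87% of probe sets passed, but not with the replicate number as a block (adjusted p = 0.0634), and between AAP and NC again for PRB1, where 12.5% passed. Without AAP aerobic replicate 3 the counts were 3 of 9 for AAC and NC (STE13, YPS1 and PRB1, where 12.1% passed) and 2 of 9 for AAP and NC (YPS1 and PRB1, where 9.91% passed). Both of these differences use the same NC arrays. Between AAC and AAP limma called 0 of 9, where 3.55% of probe sets passed; CPS1 had an unadjusted p under 0.05, with a difference of -0.32 (adjusted p = 0.0810). YPS1 passed there without AAP aerobic replicate 3, at -0.30 (adjusted p = 0.0436), and CPS1 passed without AAP aerobic replicate 2, at -0.38 (adjusted p = 0.0300).

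**Figure D3:**
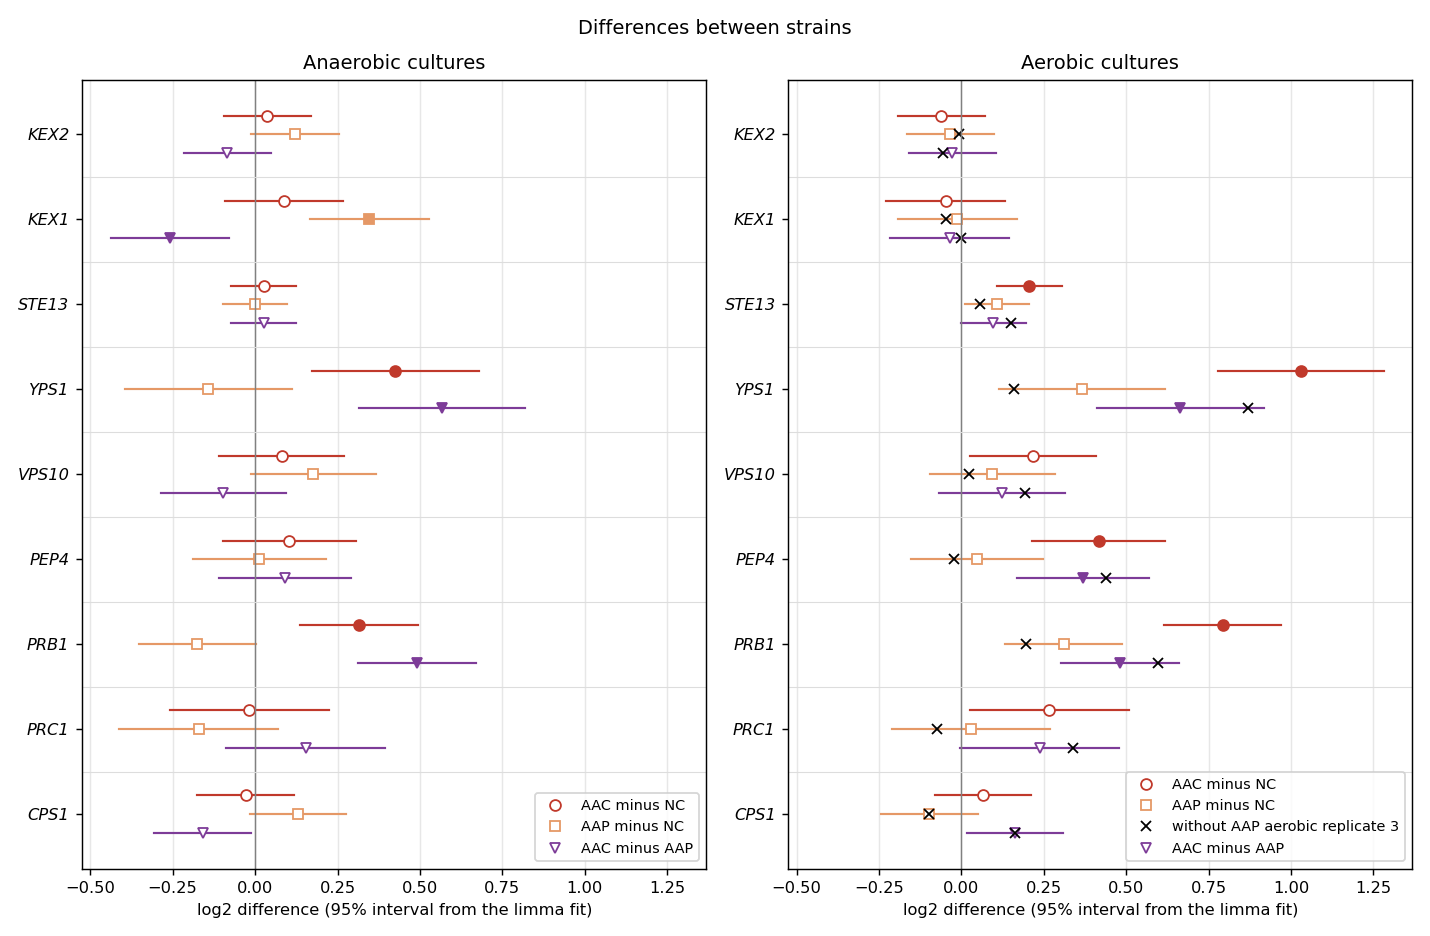
Differences between strains in log2 units (x axis) for each gene (y axis), in anaerobic cultures on the left and aerobic cultures on the right, with 95% intervals; filled symbols have an adjusted p under 0.05, and crosses mark values without AAP aerobic replicate 3. YPS1 and PRB1 lie furthest from 0 in AAC minus NC in aerobic cultures, at 1.03 and 0.79, and KEX1 is the gene that passed in AAP minus NC in anaerobic cultures, at 0.35.

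Other genes of the same routes were taken from lists. Of 6 further yapsins and secreted aspartyl proteases, 3 were higher in AAC than in NC and none lower, in aerobic cultures (median 0.11 log2 units, where 9.42% of probe sets were higher) and in anaerobic cultures (median 0.16, where 6.71% were higher). YPS3, which neighbours YPS1 in the gene table (YLR121C), was 0.84 ± 0.118 higher in aerobic AAC than in aerobic NC (SE, adjusted p = 0.00076) and 0.55 higher in anaerobic AAC than in anaerobic NC. BAR1, the secreted protease that degrades alpha factor, was 0.48 higher in aerobic AAC and 0.63 higher in anaerobic AAC than in NC. YPS6, a putative yapsin, was 0.19 and 0.23 higher in aerobic and anaerobic AAC than in NC. With oxygen the list divided: over the strains BAR1 was 0.35 higher and YPS6 0.49 lower without oxygen (log2 difference -0.49), and 4 did not pass. YPS5 lay below background in all groups. MF(ALPHA)1 and MF(ALPHA)2, which encode the alpha factor precursors, were below background in all groups too, with group means of 5.10 to 5.38 and 5.11 to 5.39.

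Among 7 other vacuolar hydrolases with a probe set, 3 were higher and 2 lower over the strains without oxygen, with a median of -0.00420, where 31.2% of probe sets were higher and 30.4% lower. AMS1, vacuolar alpha mannosidase, rose 2.22-fold and APE1, an aminopeptidase delivered through the cytoplasm, rose 2.00-fold. APE3, aminopeptidase Y, rose by 0.63 log2 units. PHO8, the vacuolar alkaline phosphatase, fell by 0.54, and YSP3, a subtilisin-like protease named after its value was seen, fell by 0.22. In aerobic AAC 3 were higher than in aerobic NC, where 9.42% of probe sets were: AMS1 by 0.96, ATH1, an acid trehalase, by 0.26 and PHO8 by 0.19. APE1 (0.39) and YSP3 (0.18) were added without AAP aerobic replicate 3. In anaerobic cultures limma called none of the 7 in AAC against NC, and 1, YSP3, had an unadjusted p under 0.05, at 0.19 (adjusted p = 0.0978, or 0.0048 without AAP aerobic replicate 3). DAP2, the vacuolar relative of STE13, passed in no comparison, at -0.05 over the strains (adjusted p = 0.244) and 0.04 for aerobic AAC over aerobic NC (adjusted p = 0.731).

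The 3 protease inhibitors were also measured. TFS1, the inhibitor of carboxypeptidase Y, was 0.68 higher without oxygen over the strains, 0.44 higher in aerobic AAC than in aerobic NC and 0.39 higher in anaerobic AAC than in anaerobic NC. PAI3, the inhibitor of proteinase A, was 0.23 higher without oxygen, and without AAP aerobic replicate 3 it also passed in aerobic AAC over aerobic NC, at 0.17 (adjusted p = 0.0260). PBI2, the inhibitor of proteinase B, was 0.71 ± 0.199 higher in aerobic AAC than in aerobic NC (SE, adjusted p = 0.0229). Its oxygen difference over the strains was -0.14 (adjusted p = 0.294), and its aerobic AAP arrays read 8.87, 8.20 and 9.42.

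Of 29 genes of the vacuolar sorting machinery, 14 were higher and 3 lower without oxygen over the strains, with a median of 0.07 log2 units, in a contrast in which 31.2% of probe sets were higher and 30.4% lower. VPS21, an endosomal Rab GTPase, and VAM3, a vacuolar syntaxin, were each 0.42 higher, VPS35 of the retromer, which returns Vps10 to the Golgi, was 0.22 higher and VPS16 was 0.17 higher. The 3 lower genes, named after their values were seen, were GGA2 (-0.21), VTH1 (-0.17, from a probe set that may be shared with its near-identical copy VTH2) and VPS13 (-0.09), the last of which had an adjusted p of 0.0551 without AAP aerobic replicate 3. In aerobic AAC against aerobic NC, 2 were higher (PEP12, an endosomal syntaxin, 0.58, and GGA1, a Golgi adaptor, 0.27) and VAM3 was lower, at -0.23, where 9.42% of probe sets were higher and 9.99% lower; without AAP aerobic replicate 3 VPS35 (0.13) and PEP5 (-0.16) were added. In anaerobic AAC against anaerobic NC, 4 were lower, where 5.29% of probe sets were: YPT7, the vacuolar Rab GTPase, at -0.43, VPS13 at -0.22, VPS41 at -0.21 and VPS33 at -0.17. PEP5 was added without AAP aerobic replicate 3, at -0.14.

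The vacuolar proton pump, which acidifies the vacuole, had mostly higher transcripts without oxygen. Over the strains 12 of its 15 genes were higher without oxygen and 0 lower, with a median of 0.35 log2 units, where 31.2% of probe sets were higher and 30.4% lower. VMA4 was 0.66 higher, with 10.51, 10.60 and 10.32 in anaerobic AAC, against 9.85, 9.81 and 9.78 in aerobic AAC. VMA8 was 0.48 higher, VMA7 0.46 and VMA5 0.35. The 3 that did not pass were VMA2 (-0.10), VPH1 (0.07) and STV1 (0.03), and VMA2 passed as lower without AAP aerobic replicate 3, at -0.19 (adjusted p = 0.0148). In aerobic AAC against aerobic NC none of the 15 was higher and 2 were lower, VMA7 at -0.24 and VMA8 at -0.20, where 9.99% of probe sets were lower. VMA16 was added without AAP aerobic replicate 3, at -0.15. In anaerobic AAC against anaerobic NC none of the 15 passed, where 12.0% of probe sets did. VMA1 passed as lower there without AAP aerobic replicate 3, at -0.25 (adjusted p = 0.0251).

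**Figure D4:**
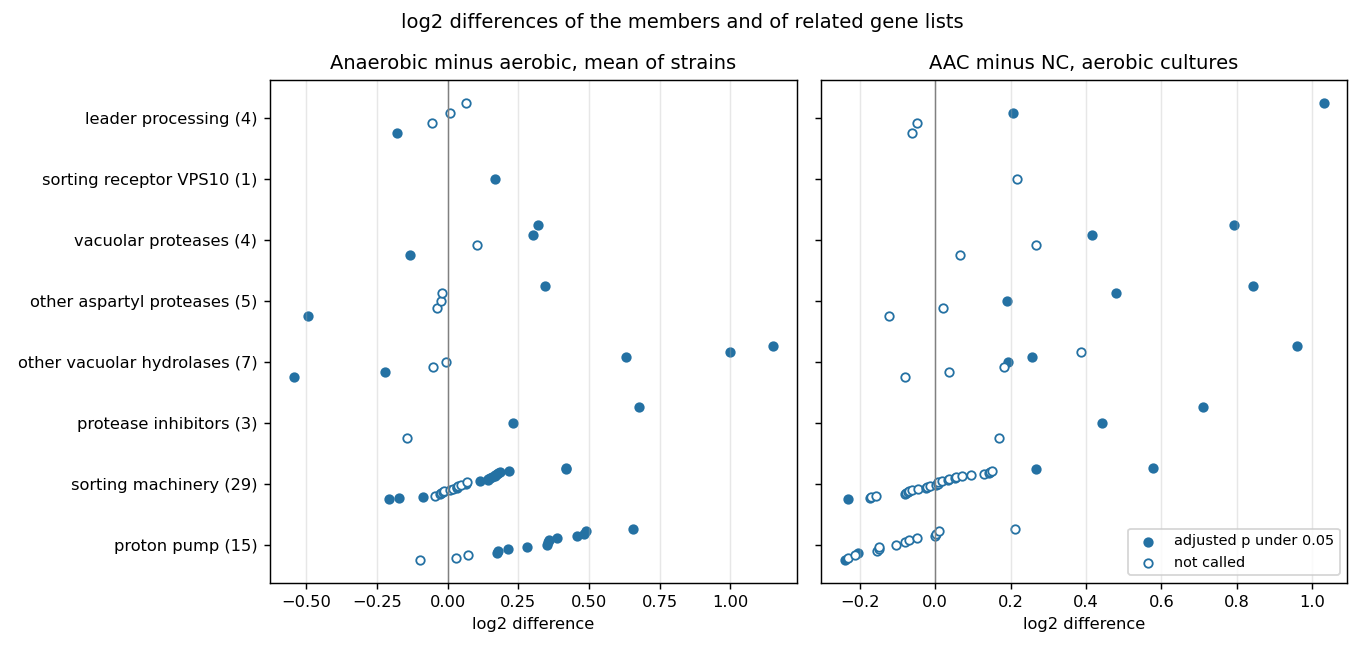
The log2 differences of the 9 genes, split by role, and of the related lists (y axis, number of genes plotted in brackets, leaving out genes below background in all groups), for anaerobic minus aerobic over the strains on the left and AAC minus NC in aerobic cultures on the right; filled points have an adjusted p under 0.05. The proton pump has 12 of 15 genes higher on the left, and on the right YPS1 lies at 1.03.

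For the members whose group means ranged over at least 0.5 log2 units, the genes with the most similar values were looked up among all tested probe sets above background. Pearson r over the 18 arrays describes arrays that share 6 groups, so its points are not independent. For YPS1 the closest were AVT3, a vacuolar amino acid exporter (r = 0.960), and DBR1, the RNA debranching enzyme (r = 0.954). For PRB1 they were GLK1, glucokinase (r = 0.976), and AIM17 (r = 0.962). For PEP4 they were PMT2, a protein mannosyltransferase (r = 0.921), and FLC1 (r = 0.908). Without AAP aerobic replicate 3 these values lay between 0.910 and 0.977.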

How the data were processed

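RNA (250 ng) was labelled with biotin and hybridised to Yeast Genome 2.0 arrays, per the labels' protocols. The authors deposited 1 value per probe set and array, read here as log2 signal from the range of 4.85 to 12.8. Per the submitters' processing notes, PLIER and R 2.10.1 were used; for background correction, normalization and the log base, nothing is stated in the sources used here. The depth of such arrays is not a count, and folds rest on the log2 reading.

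Names came from the platform table, updated through a current gene table (12 symbols). That table gave 1 gene for 7244 of 10928 probe sets, several for 1 and none for 3683. Background is the 95th percentile of 1746 fission yeast probe sets, 5.58 (5.54 to 5.59 by array), and 5019 of 5498 tested probe sets lay above it. No coordinates or sequences are given.

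limma 3.58.1 in R 4.3.3 (lmFit, eBayes) fitted 1 mean per group to 18 arrays, with 12 residual and 3.10 prior degrees of freedom and 13 contrasts, as the labels' design implies. Tests were two-sided, with Benjamini-Hochberg adjustment over the 5498 probe sets and a threshold of 0.05. A difference is the first group minus the second. The fit was tested on simulated data. All members are named. From each other list, genes were named mainly from the 4 with the smallest p over the strains and in AAC against NC in each condition. Not all of these appear. For likeness, the 2 genes with the highest r were taken. The members and lists were chosen with earlier results of these data known.

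Alternatives were quantile normalization, median centring, a filter on dim probe sets, trend and robust eBayes, fits to only the groups compared, a replicate block and leaving out each array. The labels do not say that a number marks a batch. Deviations from the group means correlated above 0.1 in all 3 pairs for AAC with NC (0.126, 0.233 and 0.326) and AAC with AAP (0.168, 0.249 and 0.456) in aerobic cultures only, so blocked values are given there where they change a call. In anaerobic cultures AAC with NC had higher values in replicates 1 and 3 but not in 2 (0.645, -0.0239 and 0.459). Blocking changed no member call in that comparison.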

Additional observations from a re-analysis of the deposited data

Results flagged for a closer look

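PRB1 met the criterion that the effect of oxygen differs between strains by a test of that difference. The difference of AAC from NC in the oxygen effect was -0.48 log2 units (adjusted p = 0.0450), from effects of 0.15 in AAC and 0.62 in NC. Its adjusted p ranged from 0.00178 to 0.120 over 24 alternatives, 6 of which passed the threshold.

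The difference of AAP from NC in the oxygen effect on PRB1 was -0.49 log2 units (adjusted p = 0.0198), from effects of 0.14 in AAP and 0.62 in NC. Over 24 alternatives its adjusted p ranged from 0.00319 to 0.0564, and 20 passed. Both differences use the same NC arrays.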

How the results depend on the processing

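No value called for a member changed sign under any alternative. Of 30 calls made with all arrays, 15 held in every fit that left out 1 array. Of 117 member values, the filter on dim probe sets changed no call, median centring ended 1, quantile normalization ended 3 and added 3, trend and robust eBayes ended 2, and the replicate block ended 2.

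Fits to only the groups compared ended the oxygen calls of YPS1 and VPS10 in AAP and added that of PRB1 in AAC. In NC they added YPS1, VPS10 and PRC1, where the fit to all arrays called 50.3% of probe sets. In aerobic cultures they gave 2079 probe sets for AAC against NC and 1 for AAP against NC. For AAC against AAP in aerobic cultures they gave 0 members and 0 probe sets. For the interactions they gave 582 probe sets and 2 members for AAC and NC, 308 probe sets for AAP and NC, and 92 for AAC and AAP. For AAP and NC they ended the call of PRB1 (adjusted p = 0.0564) and added that of KEX1 (adjusted p = 0.0441). The interaction of AAC and NC had 0 members under median centring, trend and robust eBayes and the replicate block. The block also gave 140 probe sets for AAC against AAP in aerobic cultures and ended the call of PEP4 there. Blocking changed no other call for a member.

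Leaving out 1 array gave, for members called and probe sets, 4 to 6 and 3214 to 3670 over the strains, 2 to 4 and 1961 to 2838 for oxygen in AAC, 1 to 4 and 1768 to 2303 in AAP, and 2 to 5 and 2363 to 3089 in NC. In aerobic cultures it gave 4 to 5 and 554 to 1650 for AAC against NC, 0 to 2 and 4 to 60 for AAP against NC, and 0 to 5 and 5 to 1546 for AAC against AAP. In anaerobic cultures it gave 0 to 2 and 326 to 1069, 0 to 2 and 440 to 1749, and 2 to 4 and 1165 to 2276 in the same order of comparisons. The interactions gave 0 to 3 and 61 to 667 for AAC and NC, 0 to 3 and 236 to 1338 for AAP and NC, and 0 to 1 and 69 to 424 for AAC and AAP. The causes were not tested. With 3 arrays per group, small differences could not be told from the spread.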
